A study of Mus musculus with 6 samples.

Results

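The 10 genes described here encode the receptors, ligands, DNA-binding partner and direct targets of the Notch pathway in endothelial cells, namely Notch1, Notch2, Notch4, Dll4, Jag1, Jag2, Rbpj, Hey1, Hey2 and Hes1. They were picked by name from the 49315 genes of the count table, and each name matched 1 gene. The study asked what knockdown of the long non-coding RNA Gm39822 does to the transcriptome of bEND.3 cells, an immortalized endothelial line derived from mouse brain. The GapmeR group (n = 4) received an antisense LNA GapmeR against Gm39822, a short modified oligonucleotide that directs cleavage of its target RNA, at 100 nM. The Negative Control group (n = 2) received a control GapmeR with no intended target at the same 100 nM, and both were delivered with a cationic lipid reagent. Total RNA depleted of ribosomal RNA was sequenced, and 30264086 to 37117934 reads per GapmeR sample and 29261988 and 34266811 reads per control sample were counted to genes. All samples came from 1 cell line. No label said whether they were separate cultures, so p-values measured only the spread between these samples, which may be technical.

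Notch receptors are cell-surface proteins that are activated by ligands of the Delta-like and Jagged families on a neighbouring cell. Ligand binding exposes the receptor to cleavage by an ADAM protease and then by γ-secretase, and the freed intracellular domain moves to the nucleus, joins RBPJ and Mastermind coactivators, and switches on Hes and Hey genes. In vessels the pathway is known for limiting the number of tip cells in a growing sprout, where DLL4 and JAG1 have opposing roles, and for arterial identity.

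Gm39822 (chr11:51897312-51909624, forward strand, mm10) was covered by 2, 1, 4 and 2 reads in the 4 GapmeR samples, in order of their number, against 61 and 56 reads in both controls. Every GapmeR sample was below both controls. The fitted log2 fold change was -4.82 (SE 0.41, adjusted p = 8.819e-08, edgeR's quasi-likelihood test), and the ratio of summed counts per library size was 0.0335 (95% interval 0.0149 to 0.0658, counting error only). The target was thus lower in the libraries labelled GapmeR. Levels are given below as CPM, read counts per megaread of the library after TMM scaling, a correction for differences in library composition. A log2 fold change compares GapmeR with control, and a gene is called when its p-value, adjusted by the Benjamini-Hochberg method over all 18234 genes tested, is under 0.05.

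To show the regulatory sequence next to the members, the 250 bases before the RefSeq start site (GRCm38.p6, the assembly behind mm10) were read for the 8 members that have such a window. Rbpj has 2 overlapping windows of alternative starts, both inside the gene span given below, and the Jag2 window and the last bases of the Notch4 window also lie inside their gene spans. They were searched on both strands for TGGGAA, the core recognised by RBPJ, and for CACGNG, a site of HES and HEY repressors that also covers 1 form of the E box. A match on the other strand shows in the print as its reverse complement. The RBPJ core occurs in 21.6% and the HES and HEY site in 23.6% of all 32544 mouse windows of the same length. A match is a description of the letters only. Jag1 and Notch2, a ligand and a receptor that changed in opposite directions, both held the HES and HEY site, and their whole windows are shown 5′ to 3′ with the matches in capitals. The Jag1 window is chr2:137116521-137116770 on the reverse strand, with matches 249 and 171 bases before the start. The Notch2 window is chr3:98013288-98013537 on the forward strand, with a match 42 bases before the start.
Jag1: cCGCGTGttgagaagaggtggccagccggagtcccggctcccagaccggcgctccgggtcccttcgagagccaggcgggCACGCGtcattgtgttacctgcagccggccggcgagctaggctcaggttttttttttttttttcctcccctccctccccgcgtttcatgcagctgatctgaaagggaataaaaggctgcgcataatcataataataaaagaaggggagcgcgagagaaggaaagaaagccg
Notch2: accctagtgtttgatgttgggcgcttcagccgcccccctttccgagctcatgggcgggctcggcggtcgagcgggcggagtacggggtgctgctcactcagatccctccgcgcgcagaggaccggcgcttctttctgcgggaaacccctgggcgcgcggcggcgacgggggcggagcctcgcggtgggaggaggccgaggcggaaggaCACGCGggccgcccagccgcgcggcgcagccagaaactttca

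The other matches lay in Dll4, Rbpj and Hey2, and 30 bases around each are shown with the match in capitals. The Dll4 match is to the HES and HEY site at chr2:119325577-119325606, forward strand, 195 bases before the start. The Rbpj stretches at chr5:53590185-53590214 and chr5:53590269-53590298, both printed on the forward strand, hold matches to the RBPJ core in the gene for RBPJ itself. The first match is on the printed strand and the second on the other strand. The Hey2 stretch at chr10:30842973-30843002, printed on the reverse strand, holds an RBPJ core on the other strand, 207 bases before the start. The Notch1, Notch4 and Jag2 windows held neither motif.
Dll4: ctgctcgccgggCACGCGcagagctggaag
Rbpj, first site: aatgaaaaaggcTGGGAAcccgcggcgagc
Rbpj, second site: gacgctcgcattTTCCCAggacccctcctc
Hey2: tgcgcggtggcaTTCCCAcgcctctgccaa

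Among the 10 members, Notch2 and Jag2 rose after the GapmeR, Jag1, Hes1 and Dll4 fell, and Notch1, Notch4, Rbpj, Hey1 and Hey2 were not called. Jag1 and Jag2 were called in the same direction under all 16 alternative settings run for each. The calls of Dll4, Hes1 and Notch2 did not hold under every setting, as given with each gene. Across the transcriptome 45.3% of the genes tested were called, 25.4% higher and 20.0% lower, so a call by itself does not set a Notch gene apart. The 3643 genes called lower became 2262 without control 1 and 1930 without control 2. The median log2 fold change was -0.15 over the members and 0.03 over all genes tested. Of all calls, 55.9% were higher with TMM scaling, 74.1% with scaling by library size only, which moved the median of all genes by 0.148 (log2), and 27.9% after removal of a curve on gene GC content, which moved that median to -0.26. This plain GC curve lowered nearly every gene by the same amount, a median of -0.31 against the same curve centred in each sample, a version added after seeing the data. With the centred curve the median of all genes was 0.05 and 57.0% of the calls were higher, and a gene that turned with the plain curve alone had turned with that common shift.

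Per kilobase of exon (union of exons of each gene, GENCODE vM39, GRCm39), Dll4 had the highest level of the members, at 54.2 ± 1.44 CPM per kb (SD, n = 2) in the controls. Notch4 followed at 37.1 ± 0.992, then Hes1 at 20.99 ± 0.2995, Notch1 at 20.0 ± 0.637 and Jag1 at 18.8 ± 0.254. Rbpj stood at 3.88 ± 0.0301, Jag2 at 1.04 ± 0.0115, Notch2 at 0.692 ± 0.0809, Hey1 at 0.224 ± 0.0390 and Hey2 at 0.0325 ± 0.0354. With 2 controls, the values of neighbours in this order did not overlap, and Hey2 had an SD larger than its mean. In the GapmeR samples the order by mean was the same but for Notch1, at 18.4 ± 1.58 (SD, n = 4), and Hes1, at 16.9 ± 2.24, which changed places with overlapping values. Hey2 had 10 counts or fewer in every library.

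**Figure D1:**
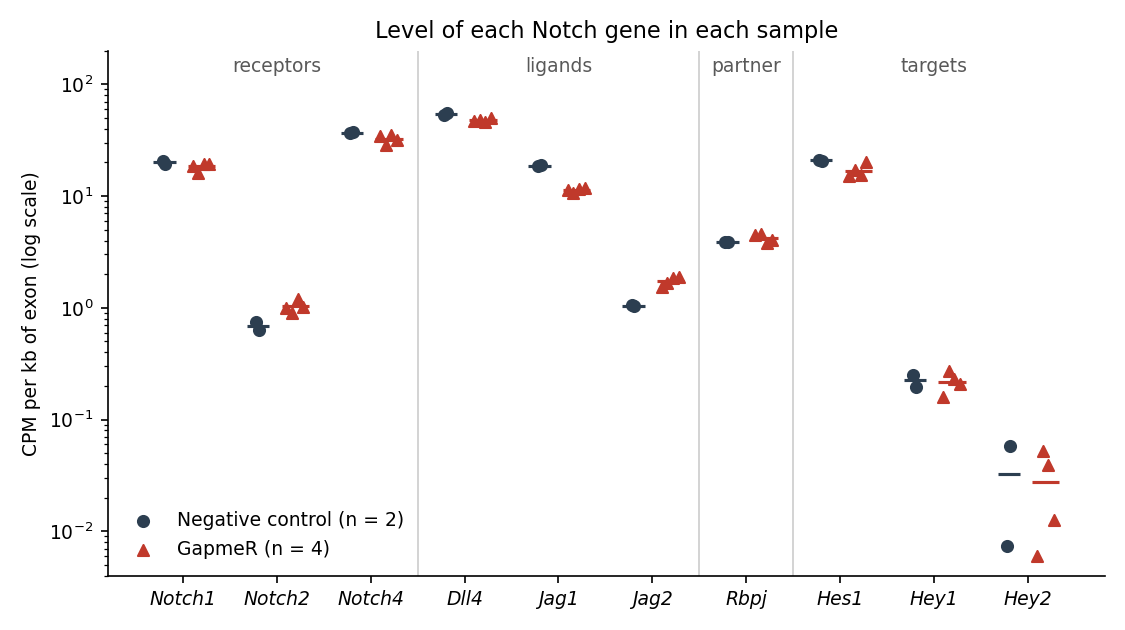
Level of each of the 10 Notch genes in CPM per kb of exon (log axis), with 1 point per sample (circles, Negative Control, n = 2; triangles, GapmeR, n = 4) and a bar at each group mean. Jag1 is lower, and Jag2 and Notch2 higher, in every GapmeR sample than in both controls, and the Hey1 and Hey2 groups overlap.

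Among the receptors, Notch2 was the member that rose. Notch2 (chr3:98013538-98150367, forward strand) had 11.2, 10.1, 13.6 and 11.5 CPM in GapmeR samples 1 to 4 and 8.43 and 7.14 CPM in controls 1 and 2. All 4 GapmeR samples lay above both controls. The log2 fold change was 0.58 (SE 0.13, edgeR adjusted p = 0.002206), a 1.49-fold higher level. The call was lost without control 2 (log2 fold change 0.48, edgeR adjusted p = 0.05573) and with the GC curve (0.15, adjusted p = 0.2927), and held with the centred GC curve (0.46, adjusted p = 0.003977).

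Notch1 and Notch4, the abundant receptors, were not called. Notch1 (chr2:26457902-26503822, reverse strand), the broadly used endothelial receptor, had 263, 229.7, 277.1 and 278 CPM in the GapmeR samples and 291.3 and 278.5 CPM in the controls. The groups did not overlap, but GapmeR 4 lay just below control 2, and the log2 fold change was -0.12 (SE 0.08, edgeR adjusted p = 0.2531). Notch4 (chr17:34564286-34588543, forward strand), a receptor found mainly in endothelium, had 306.6, 252.9, 313.9 and 282.1 CPM in the GapmeR samples and 321.9 and 334.4 CPM in the controls. All GapmeR values were below the controls, with GapmeR 2 lowest for both receptors, and the log2 fold change was -0.18 (SE 0.09, edgeR adjusted p = 0.09329). Both were called lower with the GC curve (Notch1 -0.52, Notch4 -0.60) and with the centred GC curve (Notch1 -0.21, Notch4 -0.29), while Notch1 turned to 0.03 with scaling by library size only. Of the Notch1 exons, 14.02% overlap the non-coding gene 0610009E02Rik on the opposite strand (GRCm39), and whether the counting used strand is not given in the sources used here.

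All 3 ligand members were called, 2 lower and 1 higher, against 20.0% lower and 25.4% higher of all genes tested. Jag1 (chr2:137081451-137116520, reverse strand), the Jagged ligand that promotes sprouting, had 68.2, 63.6, 68.9 and 70.3 CPM in the GapmeR samples and 110.8 and 112.9 CPM in the controls. The groups were far apart, with a gap between them several times the spread within either. The log2 fold change was -0.72 (SE 0.07, edgeR adjusted p = 3.518e-07), a fall to 0.605 of the control level, and it ranged from -1.04 to -0.58 over the alternative settings.

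Jag2 (chr12:112907803-112929812, reverse strand), the second Jagged ligand, moved the other way from a low level. It had 10.9, 11.8, 13.1 and 13.2 CPM in the GapmeR samples and 7.45 and 7.33 CPM in the controls. Every GapmeR sample was above both controls. The log2 fold change was 0.73 (SE 0.12, edgeR adjusted p = 0.0001077), or 1.66-fold, and ranged from 0.32 with the GC curve to 0.88 with library size only.

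Dll4 (chr2:119325784-119335666, forward strand), the Delta-like ligand of tip cells and arteries, had 184, 188.4, 181.1 and 198.5 CPM in the GapmeR samples and 209.9 and 217.9 CPM in the controls. The groups did not overlap, and the log2 fold change was -0.19 (SE 0.07, edgeR adjusted p = 0.0412). The call was lost in 10 of 16 alternatives, among them library size only (-0.04, adjusted p = 0.6899) and the samples without control 2 (-0.14, adjusted p = 0.3279). Of the Dll4 exons, 15.6% overlap the non-coding gene Gm14207 on the opposite strand.

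Rbpj (chr5:53555779-53657445, forward strand), the DNA-binding protein through which all Notch receptors act, had 57.7, 58.4, 49.2 and 51.7 CPM in the GapmeR samples and 50.1 and 49.5 CPM in the controls. GapmeR 3 lay below both controls and the other GapmeR samples above them, and the log2 fold change was 0.12 (SE 0.08, edgeR adjusted p = 0.2359). Rbpj was called higher with library size only (0.27), with the centred GC curve (0.24) and without GapmeR samples 3 and 4 (0.24), and turned to -0.08 with the GC curve.

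Of the target members, Hes1 fell, Hey1 was low but detected in every library, and Hey2 was near the limit of detection. Hes1 (chr16:30065357-30067796, forward strand), a transcriptional repressor induced by Notch, had 51.1, 57.7, 52.2 and 67.6 CPM in the GapmeR samples and 71.6 and 70.2 CPM in the controls. GapmeR 4 was close to the controls, and the other 3 lay clearly below. The log2 fold change was -0.31 (SE 0.10, edgeR adjusted p = 0.01835), and the call was lost with library size only (-0.16, adjusted p = 0.2238), with the filter of at least 10 counts in every sample (-0.26, adjusted p = 0.0541), and without GapmeR 1, control 1 or control 2 (adjusted p = 0.05116, 0.1426 and 0.1191).

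Hey1 (chr3:8663359-8667038, reverse strand), a repressor of the same family, had 26, 51, 34 and 32 counts in the GapmeR samples and 33 and 30 counts in the controls. The groups overlapped, and the log2 fold change was -0.03 (SE 0.29, edgeR adjusted p = 0.9407). Hey2 (chr10:30832359-30842783, reverse strand), the Hey gene tied to arterial fate, had 1, 10, 6 and 2 counts in the GapmeR samples and 1 and 9 counts in the controls. The ratio of summed counts per library size was 0.828 (95% interval 0.366 to 1.99, counting error only), so no difference was detectable at this depth.

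By sample order rather than by test, 5 members had every GapmeR sample below both controls, and 2 members, Notch2 and Jag2, had every GapmeR sample above them. Among all genes tested, such a separation occurred in 27.3% for lower and 31.9% for higher. Of the members, Rbpj, Hey1 and Hey2 had overlapping groups. When a change of at least 1.5-fold was required as well, Jag1 and Jag2 were the members still called, against 7.62% of all genes lower and 17.8% higher.

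**Figure D2:**
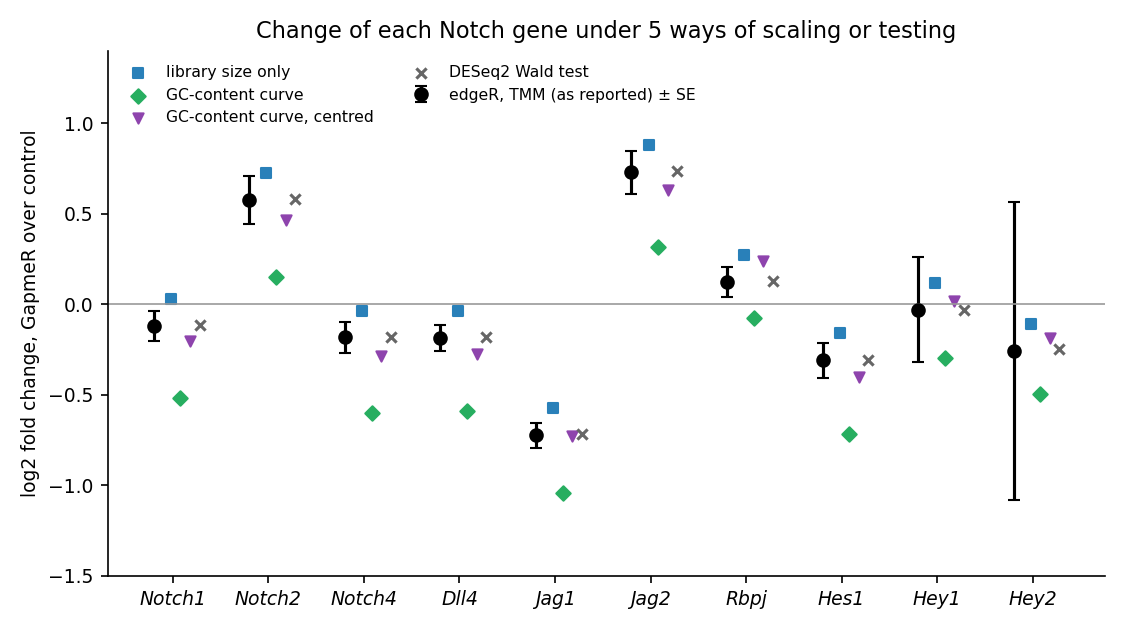
Log2 fold change of GapmeR over control for each of the 10 genes under 5 ways of scaling or testing, with the SE on the edgeR estimate. Jag1 lies below 0 and Jag2 above 0 under each, Notch1, Rbpj and Hey1 cross 0 between scalings, and the Hey2 estimate of -0.26 has an SE of 0.82.

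The receptors were next set against each other as shares of their summed level per kb, with Notch3 added as the remaining mouse receptor. Notch1 and Notch4 together made up 97.4% to 98.9% of the receptor level in every sample. Notch4 held 62.4 ± 1.38% (SD, n = 4) in the GapmeR samples and 64.1 ± 1.42% (SD, n = 2) in the controls, and Notch1 35.2 ± 1.34% and 34.6 ± 1.26%. For both genes the samples of the groups overlapped. Notch2 held 1.97 ± 0.125% and 1.20 ± 0.145%, and Notch3 0.465 ± 0.0408% and 0.0687 ± 0.0123%. The log2 ratio of Notch1 to Notch4 counts differed by 0.06 between the groups (two-sided exact permutation test over the 15 splits of 4 against 2 samples, p = 0.4, adjusted over 3 ratios p = 0.6).

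The ligand shares, with Dll1 and Dll3 added, differed more. Dll4 held 63.5 ± 0.565% of the summed ligand level per kb in the GapmeR samples and 59.0 ± 0.0993% in the controls. Jag1 held 15.2 ± 0.679% and 20.4 ± 0.303%, and Dll1 18.1 ± 0.290% and 19.4 ± 0.448%. Jag2 held 2.30 ± 0.180% and 1.14 ± 0.0447%, and Dll3 0.976 ± 0.137% and 0.0122 ± 0.00165%. For each of the 5 ligands the shares in GapmeR and control samples did not overlap. By CPM, such a separation occurred in 27.3% of all genes tested for lower and 31.9% for higher. Shares of the same sum are not independent of each other, so these percentages are not a like comparison. The Dll4 share was higher after the GapmeR although its mean CPM was lower, at 188 against 213.9 in the controls. The Dll3 share rests on 1 count in each control, and Dll3 passed the count filter through the GapmeR samples alone.

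The Dll4 to Jag1 ratio does not depend on a scaling that moves all genes of a library alike. The GC curve differs by gene, and put the log2 fold change at -0.59 for Dll4 and -1.04 for Jag1. With the centred GC curve these were -0.27 and -0.73. On the log2 scale the ratio was 1.43, 1.57, 1.39 and 1.498 after the GapmeR and 0.92 and 0.95 in the controls. As a ratio of counts this was 2.78 ± 0.147 and 1.91 ± 0.0251. All 4 GapmeR samples exceeded both controls by a mean of 0.54 (two-sided exact permutation p = 0.06667, adjusted p = 0.2). With 4 against 2 samples 0.06667 is the smallest p that this test can give. Leaving out each sample in turn gave differences of 0.51 to 0.56. The Hey1 to Hey2 ratio rested on a few Hey2 counts and gave no readable difference (exact permutation p = 1).

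**Figure D3:**
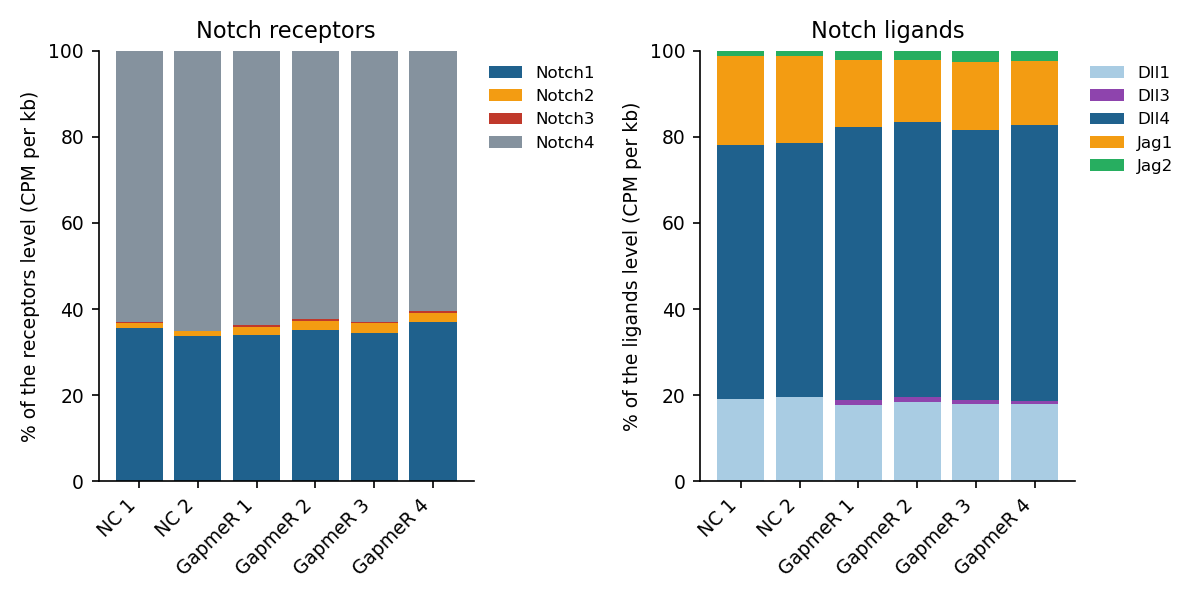
Composition of the receptor and ligand transcripts in each sample, as percent of their summed CPM per kb (NC, Negative Control). Notch4 and Notch1 fill nearly the whole receptor bar in every sample. In the ligand bar the Jag1 share is 20.4% in the controls and 15.2% in the GapmeR samples, with the Dll4 share at 59.0% and 63.5%. Shares of the same sum are not independent, and the Dll4 share is higher although the CPM of Dll4 is lower.

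A list of 76 other genes of the pathway was examined by role, of which 72 passed the filter of at least 5 counts in at least 2 samples. After the GapmeR 10 of the 72 were higher and 29 were lower. Among the 10, Dll3 and Aplnr passed the filter through the GapmeR samples alone, so their part in the higher count carries no weight. The median log2 fold change of the 72 was -0.21, against 25.4% higher and 20.0% lower and a median of 0.03 for all genes tested. The lower count was 29 with TMM and 52 with the GC curve, where 7847 of all 17965 genes tested were lower. With a 1.5-fold threshold it was 10, against 7.62% lower of all genes tested. The higher count was 16 with library size only, where 6106 of all 18234 genes tested were higher. Dlk1, Heyl, Hes3 and Hes5 were not tested, with at most 4 counts in any library.

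Notch3 and Dll3, which were barely detected in the controls, rose in every GapmeR sample. Notch3 (chr17:32120820-32166896, reverse strand), a receptor best known in the mural cells around vessels, had 70, 77, 70 and 79 counts after the GapmeR and 11 and 10 counts in the controls. All GapmeR samples lay far above both controls, and the log2 fold change was 2.61 (SE 0.29, edgeR adjusted p = 2.376e-06). Dll3 (chr7:28293555-28301785, reverse strand), a Delta-like protein that does not activate receptors on neighbouring cells, had 76, 99, 69 and 61 counts against 1 and 1. Its ratio of summed counts per library size was 66.4 (95% interval 18.2 to 551, counting error only). Dll3 reached the count filter through the GapmeR samples alone, and its fitted log2 fold change depends on 1 count in each control. Dll1, an activating Delta-like ligand, fell, with a log2 fold change of -0.39 (SE 0.07, edgeR adjusted p = 0.000267), and 27.6% of its exons overlap Fam120b on the opposite strand. Dlk2 was the remaining gene tested and was not called.

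Ligand endocytosis was covered by 4 genes for E3 ubiquitin ligases that pull ligands into the signalling cell. Neurl1b (log2 fold change 0.68) and Mib2 (0.41) rose and none fell, against 25.4% higher and 20.0% lower of all genes tested. Both calls were lost with the plain GC curve (0.27 and -0.01) and held with the centred one (0.58 and 0.31). The Neurl1b call was lost without control 2 (0.47, edgeR adjusted p = 0.1006) and the Mib2 call without control 1 (0.35, edgeR adjusted p = 0.05053). Of 5 genes for receptor glycosylation, the fringe enzyme Mfng rose (0.47) and Pofut1, which adds O-fucose to the receptors, fell (-0.27). The same 25.4% and 20.0% of all genes tested stand beside this count. The Mfng call was lost with the plain GC curve (0.08) and held with the centred one (0.39), and the Pofut1 call was lost with library size only (-0.12) and without either control.

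In the group of proteases that cut the receptor, 5 of 10 genes fell and 1 rose, with a median of -0.23, against 20.0% lower and 25.4% higher and thus 45.3% called of all genes tested. Adam10, the protease of the first ligand-induced cut, had a log2 fold change of -0.47 (SE 0.08, edgeR adjusted p = 0.0001098). Of the γ-secretase subunits, Ncstn changed by -0.59 and Aph1a by -0.55. Aph1c rose, with 111, 124, 137 and 135 counts in the GapmeR samples against 11 and 16 and a log2 fold change of 3.04 (SE 0.27, edgeR adjusted p = 1.786e-07). Aph1c has a close copy, Aph1b, that was not called (0.01), and reads of the pair may have been split or dropped, so the value is uncertain. Ncstn, Aph1a, Adam10 and Aph1c kept their call in all 16 alternatives.

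Of 8 nuclear coactivators, 5 fell and none rose, with a median of -0.29, against 20.0% and 25.4% of all genes tested. Maml2, a Mastermind protein that completes the complex of RBPJ and the receptor's intracellular domain, had 178, 218, 146 and 153 counts after the GapmeR against 383 and 430 in the controls. The groups were well apart, with a log2 fold change of -1.43 (SE 0.12, edgeR adjusted p = 6.674e-08). Maml1 changed by -0.68, Snw1, a protein of the same complex and of the spliceosome, by -0.44, and the acetyltransferase gene Kat2a by -0.27. The Kat2a call was lost in 4 of 16 alternatives, among them library size only and the samples without either control. Snw1 shares 46.1% of its exons with Slirp on the opposite strand. Of 10 corepressors, Tle1 (-0.70) and Cir1 (-0.33) fell and Ncor1 (0.22) rose, and the median was -0.01. The Cir1 call was lost with library size only and without control 2, and the Ncor1 call without either control and with the plain GC curve, where it turned to -0.12. With the centred curve Ncor1 stayed called (0.19). Of the Ncor1 exons, 19.0% overlap Ttc19 on the opposite strand.

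Among 10 genes for receptor turnover and inhibition, 5 fell and 1 rose, with a median of -0.38, beside the same 20.0% and 25.4% of all genes tested. Numb, an inhibitor that sends Notch receptors to endocytosis, fell by 0.64 on the log2 scale (SE 0.07, edgeR adjusted p = 2.257e-06), and 27.4% of its exons overlap Papln on the opposite strand. The Deltex family members Dtx4 (-0.70), Dtx3l (-0.68) and Dtx2 (-0.45) were also lower. The gene that rose was Egfl7, an abundant secreted endothelial protein, named here after its value was seen (0.22, edgeR adjusted p = 0.04803), and it turned to -0.21 with the plain GC curve and lost its call with the centred one (0.11) and without either control. The list's name covers both promoters and inhibitors of signalling, and its members did not move as 1 class.

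Of 7 genes listed as other Notch targets 4 were tested. Hes6, a gene of the Hes family, was the one called (-0.40, edgeR adjusted p = 0.001297), against 45.3% called of all genes tested. Whether Notch controls Hes6 in these cells was not tested, so its fall is not a measure of Notch output. The Hes6 call was lost without control 1 (-0.31). Nrarp, a feedback inhibitor and a Notch-induced gene in endothelium, is named here after its value was seen, since at 39.1 CPM per kb in the GapmeR samples it stood above Hes1. Its log2 fold change was 0.18 (SE 0.07, edgeR adjusted p = 0.05586), which missed the threshold, with all GapmeR samples above the controls. Of the Nrarp exons, 79.4% overlap the non-coding gene Gm38287 on the opposite strand, and the part of that gene's reads in its level was not tested. Its log2 fold change was -0.26 with the plain GC curve and 0.06 with the centred one.

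**Figure D4:**
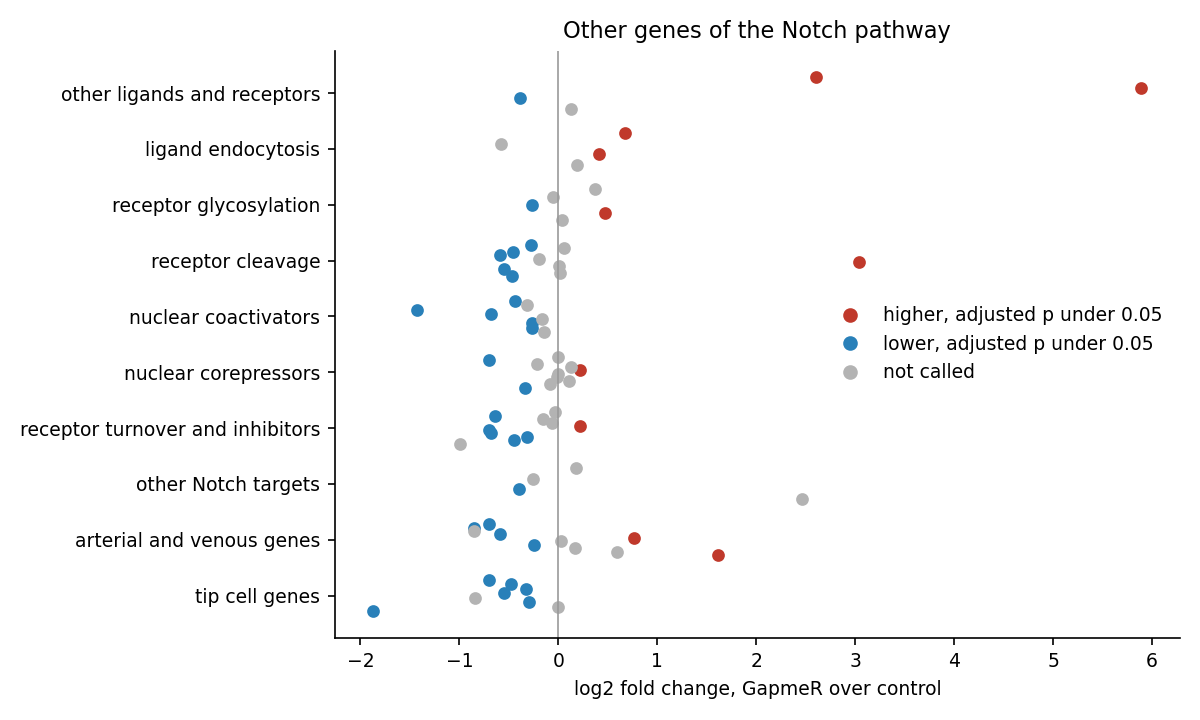
Log2 fold change of GapmeR over control for each of the other pathway genes tested, by role, with 1 dot per gene (red, called higher; blue, called lower; grey, not called). Most blue dots lie between -1 and 0, and Notch3 and Aph1c stand far to the right at 2.61 and 3.04. The dot farthest right is Dll3, whose position rests on 1 count in each control.

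Genes of arterial, venous and tip cell identity, which Notch signalling is known to shape, were counted as well. Of 10 arterial and venous genes, 2 rose and 4 fell, with a median of -0.11, where 25.4% and 20.0% of all genes tested did. Both identities were among the 4 that fell, the arterial Sox17 and Unc5b and the venous Nr2f2 and Ephb4. Nr2f2 (-0.58, edgeR adjusted p = 4.99e-05) and Ephb4 (-0.24, edgeR adjusted p = 0.03253) were named after their values were seen. Sox17, an arterial transcription factor, had 3481, 3903, 3600 and 3527 counts after the GapmeR against 5441 and 6019 in the controls, a log2 fold change of -0.86 (SE 0.07, edgeR adjusted p = 1.281e-07), and 19.0% of its exons overlap Gm37587 on the opposite strand. Gja5, an arterial gap junction protein, rose (0.77, edgeR adjusted p = 0.001459), with the call lost under the plain GC curve (0.37) and kept under the centred one (0.68), and Unc5b, a guidance receptor listed as arterial and as tip cell gene, fell (-0.70). Aplnr, the apelin receptor, was called higher from 8 to 11 counts per GapmeR sample against 2 and 3, a ratio of 3.14 (95% interval 1.23 to 10.2, counting error only), and its call held in 4 of 15 alternatives. Aplnr reached the count filter through the GapmeR samples alone, so its count among the genes that rose carries no weight. The arterial ligand gene Efnb2, named after its value was seen, had a log2 fold change of 0.17 and was not called (edgeR adjusted p = 0.06574), with -0.09 under the plain GC curve and a call under the centred one (0.22, edgeR adjusted p = 0.01801).

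Of 8 tip cell genes, 6 fell and none rose, with a median of -0.51, against 20.0% lower and 25.4% higher of all genes tested. Kdr, one of the 6, was also among the endothelial markers described below. The 2 not called were Apln, the most abundant of the list, and Esm1, both named after their values were seen. Apln was unchanged, with a log2 fold change of -0.001 (edgeR adjusted p = 0.9931). Esm1 had at most 9 counts in any library. Angpt2, which destabilises vessels during sprouting, had 532, 415, 424 and 348 counts after the GapmeR against 1137 and 1631 in the controls. Its log2 fold change was -1.87 (SE 0.15, edgeR adjusted p = 3.804e-06), and 70.7% of its exons overlap Mcph1 on the opposite strand. Flt4, a VEGF receptor restrained by Notch, changed by -0.55 and Pdgfb, which recruits mural cells, by -0.48. Angpt2, Flt4, Pdgfb, Unc5b and Sox17 kept their calls in all 16 alternatives.

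The endothelial label was checked with 10 markers, all of which were present in every sample. Their summed level was 7371, 6430, 7401 and 7335 CPM in the GapmeR samples and 8709 and 8472 CPM in the controls, with Cdh5 the most abundant. Of the 10 markers, 6 were lower and Erg was higher (log2 fold change 1.12), against 20.0% lower and 25.4% higher of all genes tested. Notch1, Notch4, Dll4, Jag1 and Hes1 followed the same order of groups, and the part of this in their values was not tested.

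The summed markers of each other cell type lay below the endothelial sum in every sample but were not constant. The sum of 8 macrophage markers was 222.4, 203.3, 342.5 and 376.5 CPM in the GapmeR samples and 172.4 and 167.3 CPM in the controls. Cd68 was the most abundant of them in both controls and GapmeR samples 1 and 2, and Lyz2 in GapmeR samples 3 and 4. Of the 8, 1 gene, Cd68, was called higher. The sum of 8 mural markers was 8.50, 8.60, 12.9 and 9.66 CPM against 2.04 and 1.94, led by Myh11 in the GapmeR samples. The most abundant mural marker was Acta2 in control 1 and Tagln in control 2. Myh11 and Tagln were called higher. Rgs5 had 5, 15, 14 and 7 counts against 4 and 4, all above the controls, and was not called (log2 fold change 1.13, edgeR adjusted p = 0.147). Acta2 had 24, 16, 80 and 42 counts against 18 and 16 and was not called (1.09, edgeR adjusted p = 0.2843). Pdgfrb (9, 6, 21 and 7 counts against 10 and 4) and Cspg4 (4, 6, 8 and 8 against 4 and 5) were not called, and Cnn1 and Des had at most 4 counts in any library. The sum of 5 fibroblast markers was 16.4, 15.4, 74.2 and 20.0 CPM against 14.5 and 16.0, and none was called. The sum of 8 neuron and glia markers was 27.1, 29.3, 42.9 and 25.97 CPM against 54.3 and 53.1. Of these 8, 4 were called lower, namely Rbfox3, Snap25, Gfap and Mbp. All these counts of called markers stand beside 20.0% lower and 25.4% higher of all genes tested. The marker genes were named after their values were seen.

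Notch2 was highest in GapmeR 3, where the fibroblast sum was also highest and the macrophage sum high. Without GapmeR samples 3 and 4 its log2 fold change was 0.48 (edgeR adjusted p = 0.005932), that of Notch3 was 2.52, that of Jag2 0.64 and that of Jag1 -0.74. Notch3 and the mural sum were both higher in every GapmeR sample than in both controls, an order seen in 31.9% of all genes tested. Among the GapmeR samples the mural sum was highest in sample 3 (12.9 CPM) and Notch3 in sample 4 (2.45 CPM). The part of mural cells in the Notch3 result was not tested. In bulk RNA a change in the mix of cells and a change in RNA per cell cannot be told apart.

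**Figure D5:**
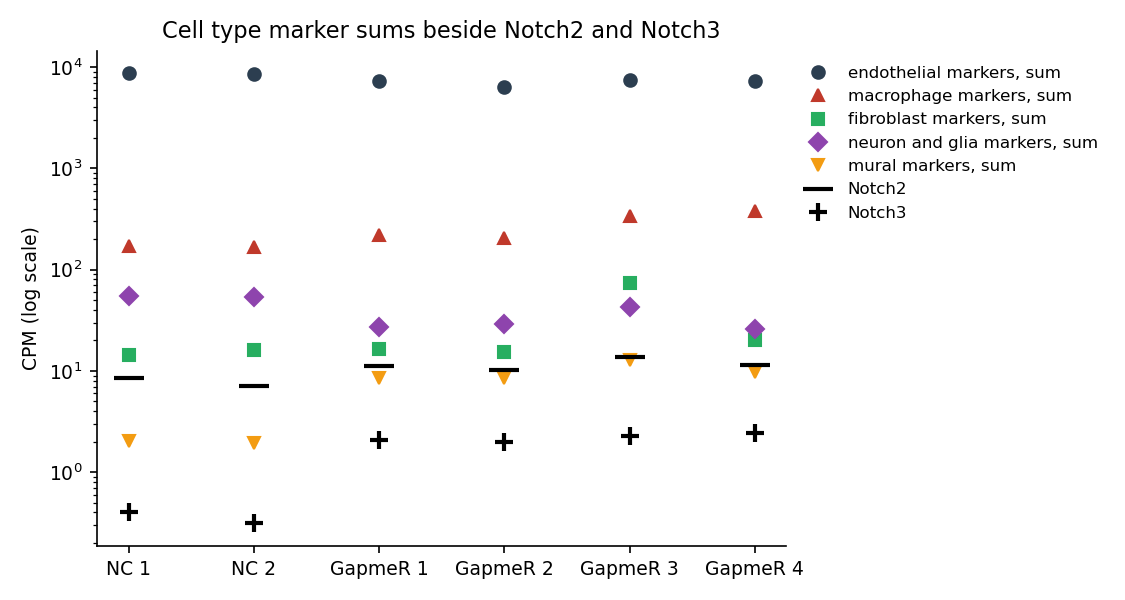
Summed CPM of the marker lists of 5 cell types in each sample, beside the CPM of Notch2 and Notch3 (log axis; NC, Negative Control). The endothelial sum is the highest in every sample, the macrophage sum is highest in GapmeR samples 3 and 4, and the fibroblast sum stands apart in GapmeR 3 at 74.2 CPM.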

How the data were processed

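The deposited table gives raw integer counts of reads for every Ensembl gene. After ribosomal depletion and paired-end sequencing the authors trimmed the reads and aligned them to mm10 with STAR in the bcbio-nextgen pipeline, and the submitters' processing notes name Trimmomatic 0.36, STAR 2.5.2b and Subread 1.5.2. The strand setting and annotation release of the counting are not given in the sources used here. Reads of overlapping or near-identical genes may have been shared, split or dropped. Another 1 column of counts, named in the same way as the controls, matches none of the labelled samples and was not used.

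Counts of the 6 samples were tested with edgeR 4.0.16 (R 4.3.3, TMM factors of 0.931 to 1.05, robust quasi-likelihood, Benjamini-Hochberg) after a filter that required 5 counts or more in 2 samples or more. Alternatives used limma 3.58.1 (voom) and DESeq2 1.42.0, other scalings and filters, a block by replicate number and samples left out, and functions were tested on simulated data. Exon lengths and GC content (92.3% of genes) came from GENCODE vM39 (GRCm39), coordinates and promoters from RefSeq GRCm38.p6. Limits and intervals on counts cover counting error only. Replicates differed by more than sampling noise, with a chi-square per degree of freedom of 7.10 to 38.7.

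The members and the lists were chosen with earlier results of these data known. Genes named beyond the members are, for each pathway list, up to 4 called genes with the largest change and the genes not tested. A few more are marked in the text as named after their values were seen. Dlk2, Aph1b and Kdr were also named, as the remaining gene of a list, a close copy of Aph1c and an endothelial marker. The value of 1 listed gene is not reported here.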

Additional observations from a re-analysis of the deposited data

Results flagged for a closer look

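In 48 groups of 4 GapmeR values examined with Dixon's test, 3 held a sample that stood apart from the other 3 by more than the 95% critical value for 4 samples. Chance gives such a result in about 1 of 20 groups, and the causes were not tested. The summed level of the endothelial markers gave a gap of 0.932 of the range, with GapmeR 2 low at 6430 CPM. The summed level of the fibroblast markers gave 0.923, with GapmeR 3 high at 74.2 CPM, where Col1a1 had 1179 counts against 75 to 148 in the other GapmeR samples. Dtx2, a Deltex gene, gave 0.877, with GapmeR 2 low.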

How the results depend on the processing

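Jag1 stayed called lower and Jag2 called higher in all 16 alternatives, and Gm39822 stayed lower in the 13 alternatives that could test it (log2 fold change -5.44 to -4.52). For the other members but Hey2, the direction or the call depended on the scaling. Scaling by library size only gave 6106 genes called higher and 2135 lower, 1 member lower and 16 other pathway genes higher. It turned Notch1 to 0.026 and Hey1 to 0.12. The GC curve gave 3036 genes higher and 7847 lower, 1 member higher and 5 lower, and 3 other pathway genes higher and 52 lower, and turned Rbpj to -0.076. The centred GC curve, chosen after seeing the data, gave 5 members lower and turned Hey1 to 0.016. The filter of at least 10 counts in every sample gave 1 member lower and Hey1 at 0.017. A 1.5-fold threshold left 3238 genes higher and 1390 lower, 1 member higher and 1 lower, and 6 other pathway genes higher and 10 lower. Leaving out GapmeR samples 3 and 4, also chosen after seeing the data, put Hey1 at 0.00029.

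Leaving out each sample in turn gave 1930 to 3949 genes lower, 1 to 2 members higher and 1 to 3 lower, and 6 to 13 other pathway genes higher, with the lowest counts of genes and pathway genes when a control was left out. Hey1 ranged from -0.18 to 0.17, Hey2 from -0.99 to 1.84, and the difference in the log2 ratio of Hey1 to Hey2 from -1.66 to 1.65 (0.054 with 0.5 added to each count). The causes were not tested. A control group of 2 samples and the low counts of both Hey genes limit what could be detected.

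The replicate numbers of the titles pair 2 samples of each group, and deviations of same-numbered samples correlated at -0.055 and 0.116, so that the samples share only a number. With the replicate block on those 4 samples 4530 genes were higher and 3268 lower (7131 calls shared with the fit without it), 3 members were higher and 2 lower, Dll4 was at -0.18 (edgeR adjusted p = 0.1548) and Rbpj at 0.24 (edgeR adjusted p = 0.02809).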
